A study of Mus musculus with 12 samples.

Results

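The genes described here encode 9 enzymes of the tricarboxylic acid (TCA) cycle and of aspartate synthesis, followed in mouse leukaemias with and without a Dnmt3b knock-in label. They were chosen by name, as the pathway around Suclg2 and Got2, which had been seen to lie lower in the knock-in leukaemias of these same arrays. The values of Suclg2 and Got2 between genotypes therefore chose the set, and they are given as a description with no test. The question was whether the other 7 genes, Suclg1, Sucla2, Got1, Cs, Idh3a, Ogdh and Mdh2, were lower too. All 9 genes were measured among 22180 genes, and all 9 were among the 19152 genes whose value passed a filter on low values.

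In the TCA cycle, acetyl groups from pyruvate are joined to oxaloacetate and oxidised in steps that feed electrons to the respiratory chain. Aspartate is made from oxaloacetate by transamination, and it is a building block of proteins, purines and pyrimidines. Proliferating leukaemic cells draw on the cycle both for energy and for aspartate. Of the 9 proteins, the product of Got1 is the cytosolic aspartate aminotransferase, whereas the other 8 work in mitochondria, so "mitochondrial" does not describe the whole set.

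MLL-AF9, the product of a chromosome fusion found in acute leukaemia, had driven 6 mouse leukaemias, and each of them gave 1 array of c-kit-positive and 1 array of c-kit-negative sorted cells. The wild-type leukaemias carry the numbers 73, 75 and 79 in the labels, and the leukaemias labelled Dnmt3b-knockin, also described there as overexpressing Dnmt3b, carry the numbers 81, 83 and 85. All groups share the MLL-AF9 oncogene, and each of the 4 groups of genotype and fraction holds 3 arrays. Titles and descriptions name bone marrow as the tissue, while the source field names leukaemic spleen. The promoter of the knock-in allele, the age and strain of the mice, and whether each number is a separate mouse are not given in the sources used here. The p-values thus concern these leukaemias only. The main fit measures the spread between arrays of a group and treats both arrays of a leukaemia as independent. Genotype over both fractions uses the spread between leukaemia means. Where fractions are compared with the leukaemia number as a block, the spread is that of differences within a leukaemia. In sorted bulk cells, fewer cells of a type and less RNA per cell cannot be told apart.

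Values are log2 intensities after robust multi-array averaging (RMA), so a difference of 1 is a doubling, and levels are compared only within a gene. Array medians lay between 5.56 and 5.71. Kit, which encodes the sorted receptor, was higher in c-kit-positive cells by 1.40 (limma, adjusted p = 7.78e-06). Dnmt3b itself differed between genotypes by 0.03 over both fractions (limma, adjusted p = 0.964), so these arrays show no higher Dnmt3b signal behind the knock-in label, and that label is used here only as a name. All 6 general white-cell markers, such as Ptprc and Itgam, lay above the filter. Leukaemia 81 stood apart from the other 5 in Xist, with a mean of 6.29 against 9.83 or more on every array of the others.

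Promoter windows are shown for the sister enzymes of the set, and no difference in value within a pair was tested. Suclg2 and Sucla2 encode the GTP-specific and ATP-specific beta subunits of succinyl-CoA ligase, and Got2 and Got1 encode the mitochondrial and cytosolic aspartate aminotransferases. Each window holds the 250 bases before the annotated start, read 5′ to 3′ on the strand of the gene, from RefSeq on build GRCm38.p6, in which 8 of the 9 genes were matched. Capitals mark matches on either strand to CACGTG (the E-box), TGCGCA (the core of the NRF1 motif), CCGGAA (the core of the ETS motif), GGGCGG (the GC box) and CCAAT (the CCAAT box). The GC box and the CCAAT box were added after the sequences had been seen. Matches that share a base run together.
Suclg2, chr6:95718847-95719096, minus strand: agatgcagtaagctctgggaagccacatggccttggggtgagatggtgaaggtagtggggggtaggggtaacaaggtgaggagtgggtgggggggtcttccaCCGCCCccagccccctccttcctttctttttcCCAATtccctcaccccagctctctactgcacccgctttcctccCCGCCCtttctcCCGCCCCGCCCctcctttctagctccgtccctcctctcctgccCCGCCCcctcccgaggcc
Sucla2, chr14:73552536-73552785, plus strand: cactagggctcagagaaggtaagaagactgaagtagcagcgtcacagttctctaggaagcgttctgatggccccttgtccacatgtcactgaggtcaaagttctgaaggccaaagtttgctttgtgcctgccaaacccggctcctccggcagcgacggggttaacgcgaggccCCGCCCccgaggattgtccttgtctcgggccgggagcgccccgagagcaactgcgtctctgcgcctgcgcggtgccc
Got2, chr8:95888402-95888651, minus strand: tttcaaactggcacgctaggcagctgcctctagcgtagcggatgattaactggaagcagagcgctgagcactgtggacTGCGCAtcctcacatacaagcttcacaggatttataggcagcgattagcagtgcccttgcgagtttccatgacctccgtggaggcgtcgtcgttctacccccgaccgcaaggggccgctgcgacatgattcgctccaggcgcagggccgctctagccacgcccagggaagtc
Got1, chr19:43524606-43524855, minus strand: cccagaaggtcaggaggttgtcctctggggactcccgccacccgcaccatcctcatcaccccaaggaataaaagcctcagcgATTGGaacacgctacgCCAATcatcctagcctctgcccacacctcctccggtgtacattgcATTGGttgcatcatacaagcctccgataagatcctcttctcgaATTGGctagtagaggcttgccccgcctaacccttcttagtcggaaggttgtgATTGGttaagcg

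The Suclg2 window held 5 GC boxes, of which a pair overlaps by 1 base, and 1 CCAAT box. The Sucla2 window held 1 GC box and no CCAAT box. The Got1 window held 5 CCAAT boxes, and the Got2 window held 1 NRF1 core and none of the other motifs. Among 32851 promoter windows of this length, 32.7% held a GC box, 33.8% a CCAAT box, 6.43% an NRF1 core, 6.02% an E-box and 12% an ETS core. CpG sites, the substrate of Dnmt3b, numbered 8 in the window of Suclg2, 18 in that of Sucla2, 11 in that of Got1 and 19 in that of Got2, against a median of 6 over all windows (quartiles 2 and 16). The windows of Suclg1, Cs and Mdh2 held 15, 13 and 23 CpG sites, and Ogdh had 6 windows at different starts with 9 to 35. DNA methylation was not measured on these arrays, and a match is a description of letters only.

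In c-kit-positive cells, Suclg2 was 1.79-fold lower in the knock-in leukaemias on its probe set with the highest mean. Its log2 values were 7.66, 7.78 and 7.90 in wild-type leukaemias 73, 75 and 79, and 7.09, 6.82 and 6.91 in knock-in leukaemias 81, 83 and 85. The lowest wild-type array thus lay well above the highest knock-in array. Means were 7.78 ± 0.12 and 6.94 ± 0.14 (SD, n = 3 each), a difference of -0.84 with a 95% interval of -1.06 to -0.61. In c-kit-negative cells the values were 7.21, 7.20 and 7.16 in wild-type and 6.97, 6.77 and 6.97 in knock-in leukaemias. These groups did not overlap either, and the difference was smaller, at -0.29.

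Suclg1 encodes the alpha subunit that pairs with both beta subunits, and Sucla2 the ATP-specific beta subunit. In c-kit-positive cells Suclg1 read 6.23, 6.05 and 6.26 in wild-type and 6.18, 5.999 and 5.94 in knock-in leukaemias. Sucla2 read 6.40, 6.35 and 6.28 in wild-type and 6.30, 6.23 and 6.34 in knock-in leukaemias. In both genes the groups overlapped. The difference was -0.14 for Suclg1 (95% interval -0.37 to 0.08; limma, adjusted p = 0.706). It was -0.06 for Sucla2 (95% interval -0.27 to 0.15; limma, adjusted p = 0.900). The difference of Suclg2 chose the set, so its size is no yardstick for these intervals. Whether the 3 differences differ from one another was not tested.

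In c-kit-negative cells Suclg1 was 5.97, 6.09 and 6.10 in wild-type and 5.93, 5.80 and 5.97 in knock-in leukaemias. The groups did not overlap, by a margin in the third decimal, and the difference of -0.15 did not pass (limma, adjusted p = 0.909). Sucla2 in that fraction was 6.21, 6.42 and 6.27 against 6.20, 6.06 and 6.28, with overlapping groups and a difference of -0.12 (limma, adjusted p = 0.943).

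**Figure D1:**
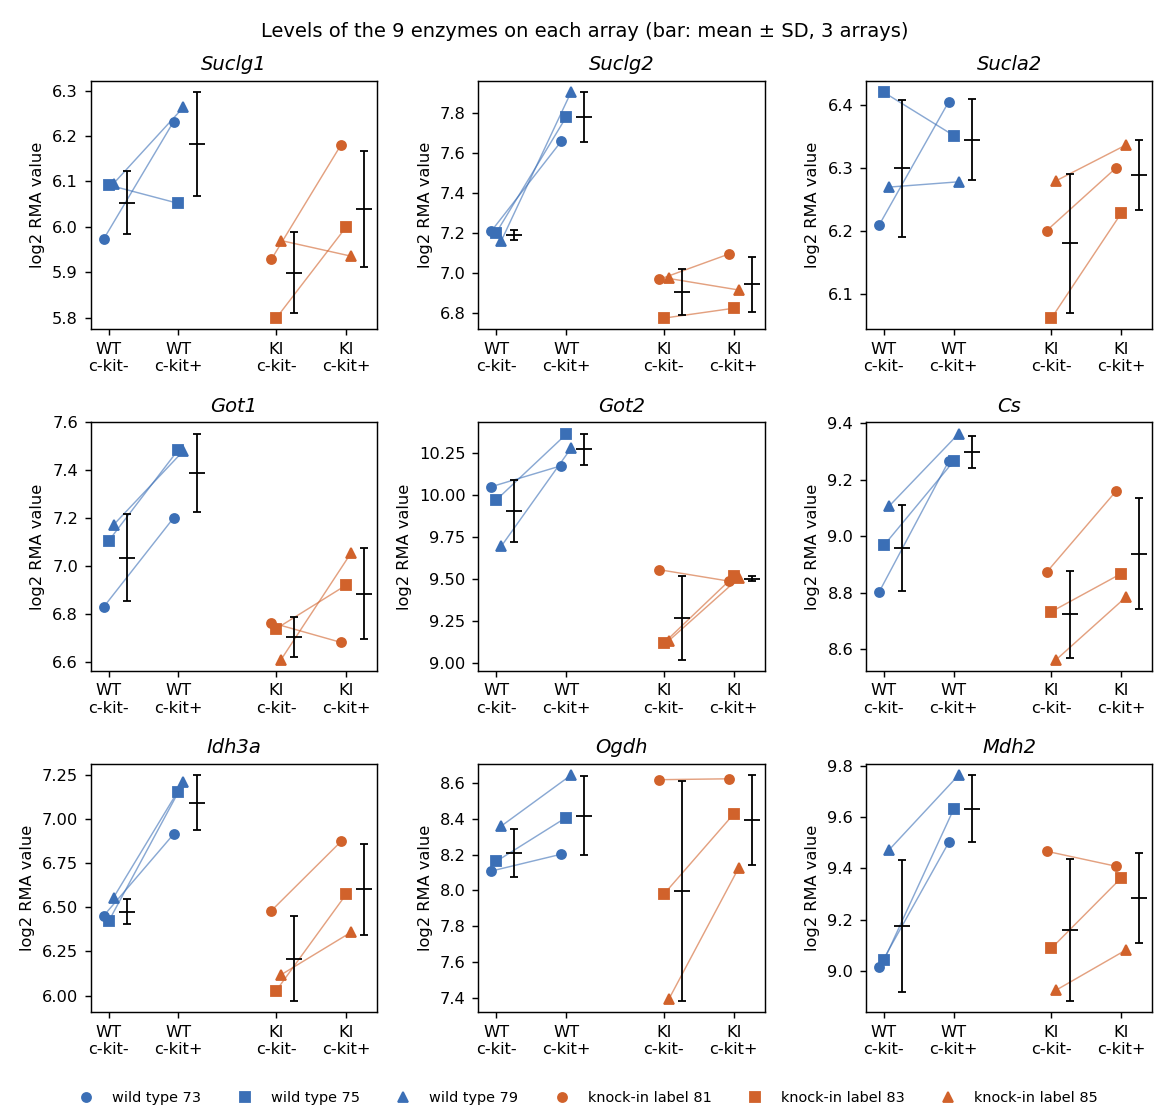
Log2 RMA value of each of the 9 genes on every array, with wild type (WT) in blue and the knock-in label (KI) in orange; lines join both fractions of a leukaemia and bars give the mean ± SD of 3 arrays. For Suclg2 and Got2 every knock-in array lies below every wild-type array of the same fraction, whereas the groups overlap in both fractions for Sucla2 and Ogdh; the vertical scale differs between genes.

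Got2 was 1.70-fold lower in knock-in c-kit-positive cells. Its values were 10.18, 10.36 and 10.28 in wild-type and 9.49, 9.52 and 9.51 in knock-in leukaemias, so the groups lay far apart and the knock-in arrays were almost alike. Means were 10.27 ± 0.09 and 9.50 ± 0.01 (SD, n = 3 each), a difference of -0.77 with a 95% interval of -1.05 to -0.49. In c-kit-negative cells the values were 10.05, 9.97 and 9.70 against 9.56, 9.12 and 9.13, again without overlap, and the difference was -0.64. Over both fractions Got2 differed by -0.70 and Suclg2 by -0.56.

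Got1 had the lowest adjusted p of the 7 tested genes in both fractions. In c-kit-positive cells it read 7.20, 7.49 and 7.48 in wild-type and 6.68, 6.92 and 7.06 in knock-in leukaemias. Every knock-in array lay below every wild-type array. The difference was -0.50 (SE 0.13, 95% interval -0.78 to -0.22), a 1.42-fold lower mean that did not pass the threshold over all genes (limma, adjusted p = 0.180). Values in c-kit-negative cells were 6.83, 7.11 and 7.17 against 6.77, 6.74 and 6.61, without overlap, and the difference was -0.33 (limma, adjusted p = 0.787).

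Cs encodes citrate synthase, which opens the cycle. In c-kit-positive cells it read 9.27, 9.26 and 9.36 in wild-type and 9.16, 8.87 and 8.78 in knock-in leukaemias. The groups did not overlap, with leukaemia 81 nearest to the wild-type values. The difference was -0.36 (limma, adjusted p = 0.328). The c-kit-negative arrays read 8.80, 8.97 and 9.10 against 8.87, 8.73 and 8.56, where leukaemia 81 lay above wild-type leukaemia 73, and the difference was -0.23 (limma, adjusted p = 0.854).

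Idh3a encodes the catalytic subunit of NAD-dependent isocitrate dehydrogenase. In c-kit-positive cells it read 6.92, 7.16 and 7.21 in wild-type and 6.87, 6.57 and 6.36 in knock-in leukaemias. The groups were separate, but leukaemia 81 lay only just below wild-type leukaemia 73. The difference was -0.49 (SE 0.15; limma, adjusted p = 0.243). Without leukaemia 81 it was -0.63 and passed the threshold (limma, adjusted p = 0.0458), as 0.642% of all genes then did. Idh3a was the only one of the 7 genes to pass between genotypes when any leukaemia was left out. The c-kit-negative arrays read 6.45, 6.42 and 6.56 against 6.48, 6.03 and 6.12, overlapping through leukaemia 81, with a difference of -0.27 (limma, adjusted p = 0.866).

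Ogdh encodes the subunit of the 2-oxoglutarate dehydrogenase complex that makes the substrate of succinyl-CoA ligase. In c-kit-positive cells it read 8.20, 8.41 and 8.64 in wild-type and 8.62, 8.43 and 8.12 in knock-in leukaemias, and the groups covered the same range. The difference was -0.03 (95% interval -0.55 to 0.49; limma, adjusted p = 0.986), and it was 0.02 after the arrays were quantile normalized once more. Values in c-kit-negative cells were 8.11, 8.16 and 8.36 against 8.62, 7.98 and 7.39. The knock-in arrays lay on both sides of the wild-type arrays there, with leukaemia 81 highest and leukaemia 85 lowest of all 6, and the difference was -0.21 (limma, adjusted p = 0.962).

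Mdh2 encodes mitochondrial malate dehydrogenase, which regenerates the oxaloacetate used by citrate synthase and by the aminotransferases. In c-kit-positive cells it read 9.50, 9.63 and 9.76 in wild-type and 9.41, 9.36 and 9.08 in knock-in leukaemias, without overlap. The difference was -0.35 (95% interval from -0.69 to just below 0; limma, adjusted p = 0.505). In c-kit-negative cells it read 9.02, 9.04 and 9.47 against 9.47, 9.09 and 8.93, with overlapping groups and a difference of -0.01 (limma, adjusted p = 0.997).

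Counted together, 0 of the 7 tested genes passed an adjusted p of 0.05 (limma) between genotypes in c-kit-positive cells, where 0.141% of all genes passed. At an unadjusted p under 0.05 there were 4 of the 7, namely Got1, Cs, Idh3a and Mdh2, beside 1894 of the 19152 genes (9.89%). The same 4 genes had groups that did not overlap, lower in the knock-in leukaemias, a pattern that 9.88% of all genes showed. With Suclg2 and Got2, which chose the set, this was 6 of 9. The median difference was -0.35 for the 7 genes, against 0.01 for all genes tested, and all 7 lay below 0 beside 46.7% of all genes.

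In c-kit-negative cells 0 of the 7 passed (limma), where 0.0627% of all genes passed, and 1 of the 7, Got1, had an unadjusted p under 0.05, beside 6.1% of all genes. Groups without overlap, lower in the knock-in leukaemias, were found for 2 of the 7, Suclg1 and Got1, against 4.66% of all genes. The median of the 7 was -0.21, against -0.0026 for all genes.

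Over both fractions, where a leukaemia was represented by the average of its pair of arrays, the 7 differences ran from -0.42 for Got1 (limma, adjusted p = 0.330) through -0.38 for Idh3a (0.449) and -0.30 for Cs (0.504) to -0.09 for Sucla2 (0.858). None of the 7 passed in limma, where 0.0261% of all genes passed, and 3 of the 7 had an unadjusted p under 0.05, beside 8.37% of all genes. Leukaemia means did not overlap for 4 of the 7, Suclg1, Got1, Cs and Idh3a, against 7.45% of all genes. The differences of Got1, Idh3a and Cs were thus the largest of the 7 over both fractions.

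**Figure D2:**
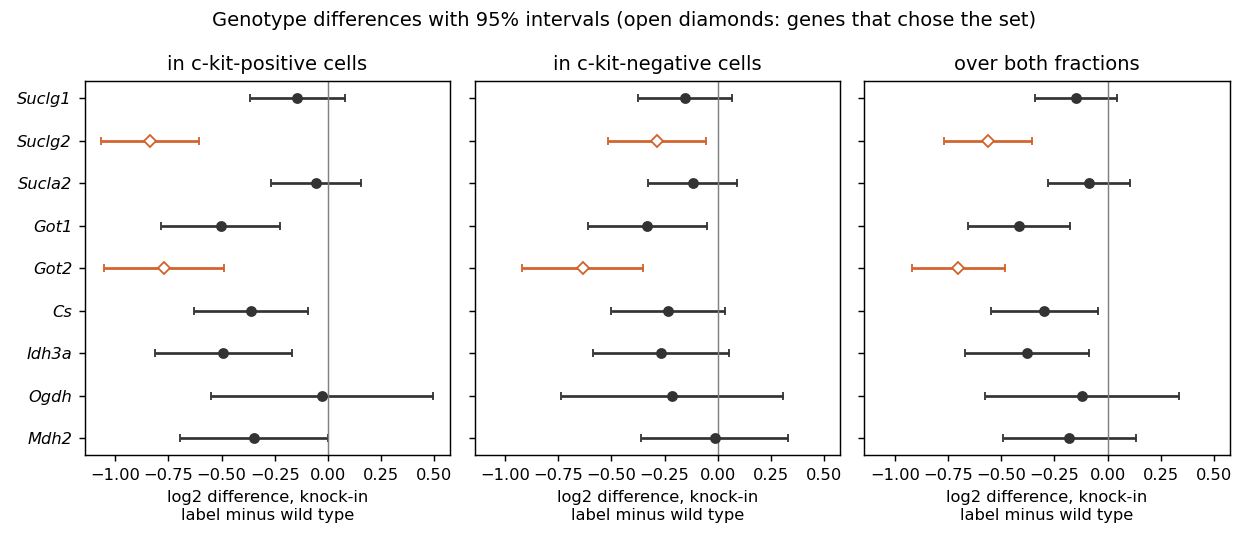
Log2 difference between knock-in and wild-type leukaemias for each gene in c-kit-positive cells, c-kit-negative cells and over both, with 95% intervals from the limma fit; open diamonds mark Suclg2 and Got2, which chose the set and were not tested. The intervals of Suclg1, Sucla2 and Ogdh span 0 in all 3 panels, and Got1 lies nearest to the diamonds in c-kit-positive cells at -0.50.

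The knock-in leukaemias were not alike across the 7 genes that did not choose the set. In c-kit-positive cells, leukaemias 83 and 85 each had 6 of the 7 below every wild-type array, where 27.1% and 30.8% of all genes lay below, and leukaemia 81 had 4, beside 28.4%. In c-kit-negative cells leukaemias 83 and 85 again had 6 of the 7, beside 28.1% and 31.1% of all genes, and leukaemia 81 had 3, beside 32.3%. The median distance of the 7 from the wild-type mean in c-kit-positive cells was -0.14 in leukaemia 81, -0.27 in leukaemia 83 and -0.34 in leukaemia 85. In leukaemia 81, Suclg2 at 7.09 and Got2 at 9.49 in c-kit-positive cells lay below every wild-type array, while Ogdh at 8.62 was close to the highest array of all.

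Markers of other cell types differed with the genotype label. The summed linear level of 12 late neutrophil markers, such as Ltf, Camp and Ngp, was 13085 to 16548 in knock-in and 4394 to 10264 in wild-type c-kit-positive cells, and all 12 lay above the filter. In c-kit-negative cells it was 17927 to 21896 against 9482 to 14969, so the groups did not overlap in either fraction. Between genotypes, 3 of these 12 genes passed as higher in each fraction (limma), as did 11 of all 19152 genes in each. The summed level of 6 progenitor markers was 1335 to 1501 against 1565 to 2535 in c-kit-positive cells and 954 to 1228 against 1554 to 1808 in c-kit-negative cells, lower in the knock-in leukaemias without overlap. Of these 6 markers 0 passed as lower (limma), while Mecom passed as higher in both fractions, by 1.16 and 1.15 (limma, adjusted p = 0.0304 and 0.0487). Kit differed by -0.16 and 0.04, and Meis1 by -0.05 and -0.06. In c-kit-positive cells 3 of the 6 were lower without overlap, a pattern that 9.88% of all genes showed. These were Cd34 (6.65 to 7.13 against 7.28 to 9.54), Flt3 (6.02 to 7.28 against 7.88 to 8.63) and Hoxa9 (7.73 to 8.14 against 8.35 to 8.79). In c-kit-negative cells 2 of the 6 were, Cd34 and Flt3, beside 4.66% of all genes. In c-kit-negative cells the summed levels of 5 B cell markers (566 to 1285 against 412 to 540) and of 7 T and NK cell markers (349 to 403 against 307 to 330) were higher without overlap. Of these 5 and 7 markers 0 passed (limma), where 0.0627% of all genes did. Some lay near the filter of 4.61, such as Cd3e at 5.03 to 5.58 against 4.68 to 4.87 and Ms4a1 at 4.89 to 5.24 against 4.79 to 4.96. Ighm, the highest of the B cell markers, read 8.47 to 9.87 against 7.62 to 8.33. The summed levels of primary granule, monocyte and erythroid markers overlapped between genotypes in both fractions. Every marker measured lay above the filter on at least 3 arrays. The part of these cell types in the enzyme values was not tested.

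Between sorted fractions, a comparison that the choice of genes did not use, 2 of the 9 genes passed as higher in c-kit-positive cells. This was in the main fit, which does not pair both arrays of a leukaemia. Idh3a was higher by 0.51 (SE 0.11, limma, adjusted p = 0.0112) and Suclg2 by 0.31 (SE 0.07, limma, adjusted p = 0.0221). These are mean ratios of 1.42 and 1.24. The choice did use the same arrays and the same estimate of the spread. The p-values of Suclg2 and Got2 between fractions are therefore not fully independent of it. Of all genes, 8.25% passed in either direction and 5.84% passed as higher in c-kit-positive cells. With the leukaemia number as a replicate block, which compares both fractions within a leukaemia, 7 of the 9 passed as higher, all but Suclg1 and Sucla2. Of all 19152 genes, 2492 then passed as higher, and 19.6% passed in either direction. The 5 genes added were Cs (limma, adjusted p = 0.0105), Mdh2 (0.0145), Got2 (0.0279), Got1 (0.0280) and Ogdh (0.0332).

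The median difference of the 9 genes between fractions was 0.29, against -0.03 for all genes, and 9 of 9 lay above 0 beside 42.0% of all genes. Idh3a was higher in the c-kit-positive array of all 6 leukaemias, by 0.46, 0.73 and 0.65 in leukaemias 73, 75 and 79 and by 0.39, 0.55 and 0.24 in leukaemias 81, 83 and 85. Cs differed by 0.46, 0.30 and 0.26 and by 0.29, 0.13 and 0.22, again higher in 6 of 6. Ogdh was higher in 6 of 6 as well, with differences from 0.01 in leukaemia 81 to 0.73 in leukaemia 85.

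Got1, Got2 and Mdh2 were higher in the c-kit-positive array of 5 of 6 leukaemias, and in each of these genes leukaemia 81 was the exception, at -0.08, -0.07 and -0.06. Their mean differences were 0.27, 0.30 and 0.29. Suclg1 differed by 0.13 on average and was higher in 4 of 6, and Sucla2 by 0.08 and 5 of 6, and neither passed with or without the block. Suclg2 differed by 0.45, 0.58 and 0.74 in the wild-type leukaemias and by 0.13, 0.05 and -0.06 in the knock-in leukaemias. Its mean over 6 leukaemias thus comes mostly from the wild-type leukaemias.

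The call of Suclg2 was lost without leukaemia 73, 75, 79 or 83 (limma, adjusted p = 0.0604, 0.109, 0.0990 and 0.0726), and that of Idh3a without leukaemia 75 or 83 (0.0868 and 0.0704). Calls fell over all 19152 genes too, where 1118 passed as higher with every leukaemia kept. Leaving out leukaemia 73, 75, 79 or 83 left 362, 325, 669 and 366. Without leukaemia 81, 4 of the 9 passed, beside 10.9% of all genes in either direction, the added genes being Got1 and Got2. With repeated quantile normalization 3 of the 9 passed, Got2 being added at 0.29 (limma, adjusted p = 0.0379), beside 8.85% of all genes in either direction. Suclg2 also missed the threshold when all probe sets of a gene were averaged, at 0.13 (adjusted p = 0.277).

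**Figure D3:**
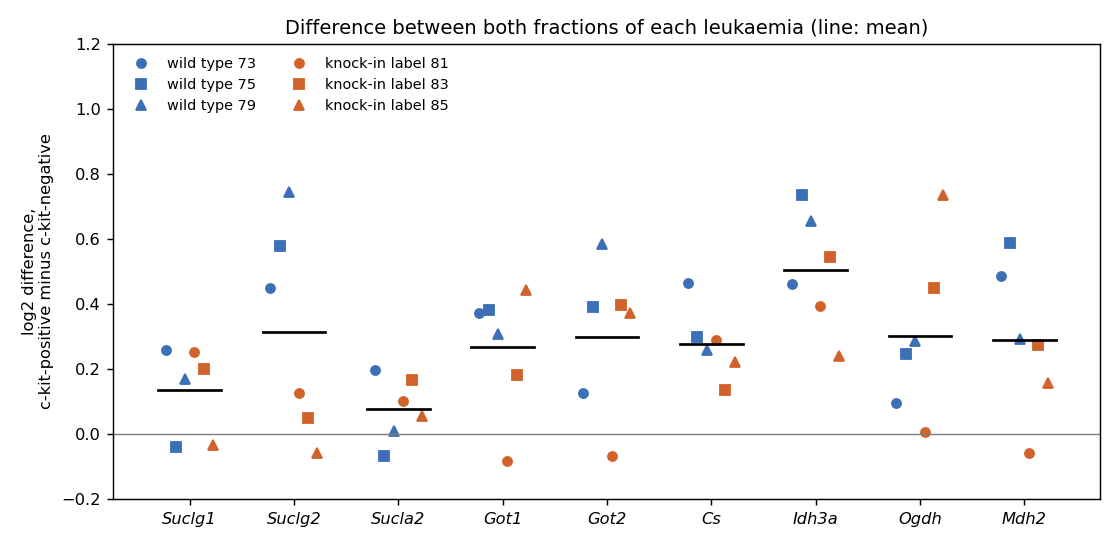
Log2 value of the c-kit-positive array minus that of the c-kit-negative array of the same leukaemia, for each gene; points are the 6 leukaemias and lines their mean. Cs, Idh3a and Ogdh lie above 0 in all 6, and for Suclg2 the wild-type leukaemias (0.45 to 0.74) lie above the knock-in leukaemias (-0.06 to 0.13).

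Within the wild-type leukaemias alone, 0 of the 7 tested genes passed between fractions (limma), where 0.768% of all genes passed, and 4 of the 7 had an unadjusted p under 0.05, beside 16.2% of all genes. Idh3a was nearest, at 0.62 (limma, adjusted p = 0.0773). With the replicate block 3 of the 7 passed, Idh3a (adjusted p = 0.00376), Mdh2 at 0.46 (0.0164) and Cs at 0.34 (0.0364), where 11% of all genes passed. In a fit to these 6 arrays alone 1 passed, Idh3a (adjusted p = 0.0217), beside 4.69% of all genes. It also passed in the full model without leukaemia 81 or 85 (adjusted p = 0.0169 and 0.0397), where 3.46% and 2.97% of all genes passed. Those leukaemias are not wild type and enter only through the shared estimate of the spread.

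Within the knock-in leukaemias, 0 of the 7 passed (limma), where 1.88% of all genes passed, and 1 of the 7 had an unadjusted p under 0.05, beside 12.6% of all genes. With the replicate block 1 passed, Idh3a at 0.39 (adjusted p = 0.0300), where 8.7% of all genes passed. Suclg2, described only, differed between fractions by 0.59 in wild-type and by 0.04 in knock-in leukaemias, and Got2 by 0.37 and 0.23.

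The interaction, which asks whether the difference between genotypes depends on the fraction, passed for 0 of the 7 genes and for 0% of all genes (limma), with 0 of the 7 and 427 of all genes (2.23%) at an unadjusted p under 0.05. The 7 values ran from -0.33 for Mdh2 to 0.19 for Ogdh. Suclg2 had -0.55, given as a description. Ordered by level, the group means of Suclg2 were 7.78 in wild-type c-kit-positive, 7.19 in wild-type c-kit-negative, 6.94 in knock-in c-kit-positive and 6.90 in knock-in c-kit-negative cells, and the last pair of groups lay within its spread. For Got2 the order was the same, at 10.27, 9.91, 9.50 and 9.27, with knock-in leukaemia 81 higher in c-kit-negative than in c-kit-positive cells.

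Markers also differed between fractions. All 6 primary granule markers, such as Mpo and Elane, passed as higher in c-kit-positive cells (limma), with summed levels of 7989 to 19640 against 2413 to 7204 in wild-type and 8515 to 16071 against 2347 to 6142 in knock-in leukaemias. Of the 12 late neutrophil markers 7 passed as lower, with summed levels of 4394 to 10264 against 9482 to 14969 in wild-type and 13085 to 16548 against 17927 to 21896 in knock-in leukaemias. Of the 8 monocyte markers 6 passed as lower. Among all 19152 genes, 1118 passed as higher and 462 as lower. Marker levels of granulocytes and monocytes thus differed between fractions beside Kit, and their part in the enzyme values was not tested.

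The rest of the pathway was read from lists of 101 other genes, of which 93 were measured and 91 tested. Between genotypes in c-kit-positive cells 1 of the 91 passed, where 0.141% of all genes did. Tomm20, a receptor of the outer membrane import complex, was lower by 0.63 in the knock-in leukaemias (limma, adjusted p = 0.0304). It was no longer called when leukaemia 73, 75, 79, 83 or 85 was left out, or with an intensity trend and robust moderation. Each of these left 0 genes of the lists called. Calls fell over all 19152 genes too, where 16 passed as lower in the main fit. Leaving out leukaemia 73, 75, 79, 83 or 85 left 9, 1, 0, 0 and 10, and the trend with robust moderation left 10. Without leukaemia 81 the lists held 4 called genes, beside 0.642% of all genes. Next by p were Tomm40, also of that import complex, at -0.59 (adjusted p = 0.0887) and the citrate carrier Slc25a1 at -0.51 (0.164), which did not pass. In total 73 of the 91 lay below 0, beside 46.7% of all genes, with a median of -0.18.

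Among these lists, the 15 other TCA cycle genes had a median of -0.32 and 14 lay below 0, with 0 passing. The other subunits of isocitrate dehydrogenase, Idh3b and Idh3g, had -0.28 and -0.40, and the partners of Ogdh in its complex, Dlst and Dld, had -0.34 and -0.32. Subunits of succinate dehydrogenase ran from -0.48 for Sdhc and -0.44 for Sdha to -0.08 for Sdhb. The 9 genes of the malate-aspartate shuttle and of carriers for related acids had a median of 0.04 with 3 below 0. Mdh1, the cytosolic malate dehydrogenase gene among them, had -0.39, and the aspartate-glutamate carriers Slc25a12 and Slc25a13 had 0.05 and 0.07. The 13 genes listed for enzymes that consume or make aspartate, or that act next to those in a pathway, had a median of -0.19 with 12 below 0, among them Cad at -0.63 and Adss, a purine synthesis enzyme, at -0.61. The 23 genes listed for general mitochondrial proteins and for mitochondrial biogenesis factors, Myc among them, had a median of -0.21 with 21 below 0. The mitochondrial chaperones Hspa9 at -0.99 and Hspd1 at -0.76 did not pass (limma, adjusted p = 0.189 and 0.237). In the same list Hspe1 had -0.08, and the biogenesis factors Tfam, Nrf1 and Pprc1 had -0.09, -0.01 and -0.02. Values below 0 were therefore not limited to the 9 enzymes, and no difference between the lists was tested.

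In c-kit-negative cells 0 of the 91 passed (limma), where 0.0627% of all genes did, and 58 lay below 0, beside 50.6% of all genes. Over both fractions 0 of the 91 passed (limma), where 0.0261% of all genes did, and 64 lay below 0, beside 46.4%. Hspa9 had -0.85 (adjusted p = 0.641) and Pdha1, a subunit of pyruvate dehydrogenase, -0.43 (0.780) in c-kit-negative cells. Over both fractions Pdha1 had -0.52 (0.220), Tomm40 -0.45 (0.257) and Hspa9 -0.92 (0.298).

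Between fractions 14 of the 91 passed as higher in c-kit-positive cells and 0 as lower (limma), where 5.84% of all genes passed as higher. They included mitochondrial isocitrate dehydrogenase Idh2 at 0.84 (adjusted p = 0.0211), the adenylosuccinate synthase Adssl1 at 0.60 (0.00753), adenylosuccinate lyase Adsl at 0.44 (0.0216), the carriers Slc25a1 at 0.39 (0.0182) and Slc25a10 at 0.34 (0.0163), and Tomm40 at 0.36 (0.0203). With the replicate block 36 passed, where 19.6% of all genes did in either direction. Leaving out a leukaemia gave 1 to 24, the 24 without leukaemia 81, beside 10.9% of all genes. The 1 came without leukaemia 75 or 83, where 325 and 366 of all 19152 genes passed as higher. Among the 15 other TCA cycle genes 4 passed, and their median was 0.16.

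**Figure D4:**
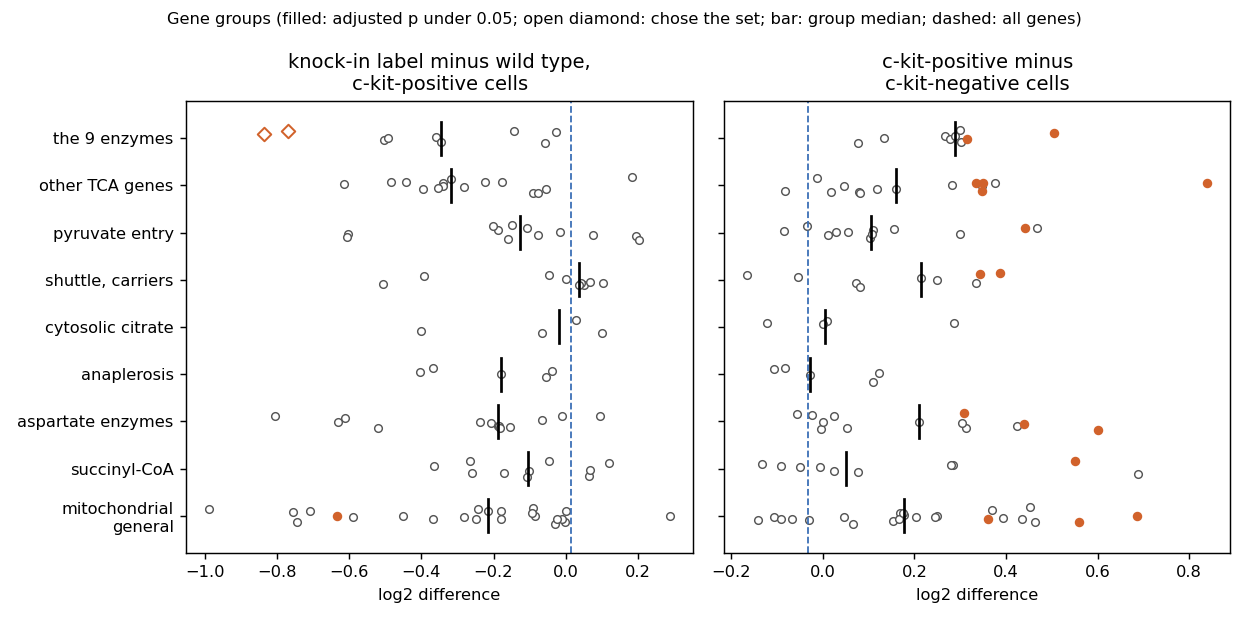
Log2 difference of each gene by group, between genotypes in c-kit-positive cells (left) and between fractions over both genotypes (right); filled points passed an adjusted p of 0.05, open diamonds are Suclg2 and Got2 in the comparison that chose the set, bars are group medians, on the left without Suclg2 and Got2, and the dashed line is the median of all genes. On the left 1 tested gene, Tomm20, is filled, and the medians of the 7 enzymes that did not choose the set (-0.35) and of the other TCA genes (-0.32) lie to the left of the line.

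Within wild-type leukaemias Slc25a1 at 0.66 (limma, adjusted p = 0.0379) and Tomm20 at 0.52 (0.0399) passed between fractions, and Adssl1 at 0.70 (0.0722) did not. Within knock-in leukaemias Slc25a10 passed at 0.51 (0.0289), whereas Pdhb at 0.52 (0.153) and Adssl1 at 0.50 (0.163) did not. The replicate block called 25 of the 91 in wild-type leukaemias in place of 2, where 11% of all genes passed, and 10 in knock-in leukaemias in place of 1, where 8.7% did. For the interaction 0 of the 91 passed, with Tomm20 at -0.64, Slc25a1 at -0.55 and Pdhx at 0.33 lowest in p.

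Suclg2 and Got2 each had another probe set with 1 symbol. That of Suclg2 read 4.15 to 4.56, above the filter on 0 of 12 arrays, and differed between genotypes by 0.11 in c-kit-positive and -0.03 in c-kit-negative cells. That of Got2 read 5.41 to 5.69 and differed by 0.12 and 0.13. The other probe sets thus did not show the lower values. Averaging both probe sets of a gene gave -0.36 for Suclg2 and -0.33 for Got2 in c-kit-positive cells. The values of both genes given above come from the probe set with the highest mean only.

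The genes most like Suclg2 over the 12 arrays, after each gene was centred on its mean, were D5Ertd605e, Esf1, Lap3, Cluh and Ndufa10, with a root mean square difference of 0.0986 to 0.126. Suclg2 itself varied by 0.361 around its mean, and the median over all genes was 0.409. For Got2 they were Atp5b, Tnpo1, Dad1, Gm12508 and Klhdc2, with 0.131 to 0.158 against a spread of 0.405 and a median of 0.448. Atp5b and Ndufa10 encode subunits of ATP synthase and of complex I. The likeness is a description over arrays that share leukaemias, and it says nothing about control.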

How the data were processed

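Total RNA of 12 sorted samples was labelled for Affymetrix whole-transcript arrays, per the labels' protocols. The deposited table holds log2 values of 41345 probe sets, made by the authors with RMA in Affymetrix Expression Console, per the submitters' processing notes, with no versions given, and it was used as deposited. It holds 0 columns of other samples.

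The 9 genes, the pathway and marker lists and the rule for naming genes were chosen with earlier results of these data known. All 9 genes were named in every comparison. From the lists, up to 6 genes past the threshold with the smallest p were named, or the 3 smallest where fewer than 3 passed. Genes named otherwise were picked by role after their values were seen. Each gene took its probe set with 1 symbol and the highest mean. Genes above log2 4.61 (the 25th percentile) on at least 3 arrays were tested. limma 3.58.1 in R 4.3.3 fitted 4 group means to 12 arrays, and genotype over both fractions used 3 against 3 leukaemia means. Tests were two-sided and adjusted by Benjamini-Hochberg over all genes. The model fit was tested on simulated data with independent arrays, so that check does not cover the pairing of arrays within a leukaemia. Promoters were searched over the 250 bases before the start, a shorter window than planned, so that no transcribed base is shown.

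The labels give both arrays of a leukaemia the same number, and their deviations from the group means correlated at 0.279 to 0.601 in all 6 leukaemias, so the leukaemia number pairs the fractions. The replicate block was fixed for comparisons between fractions and random for comparisons between genotypes (statmod 1.5.0). For arrays there is no depth, and their number limits the precision. Alternatives were other scalings, filters, probe sets, variance models and samples.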

Additional observations from a re-analysis of the deposited data

How the results depend on the processing

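Over the alternatives run, 655 of 691 tested values of the 9 genes kept their direction and their side of the threshold, 16 passed where they had not, 7 no longer passed and 13 changed sign. Of 164 values given as a description, 156 moved by less than the spread between replicates and 8 by more, all through averaging the probe sets of a gene for Suclg2 or Got2. No gene among the 7 passed between genotypes in c-kit-negative cells, over both fractions or for the interaction under any alternative.

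In c-kit-positive cells, leaving out a leukaemia gave 0 to 1 of the 7 between genotypes, the 1 without leukaemia 81, beside 0.642% of all genes. Between fractions over both genotypes, leaving out a leukaemia gave 0 to 4 of the 9. The 0 came without leukaemia 75 or 83, where 325 and 366 of all 19152 genes passed as higher. The 4 came without leukaemia 81, beside 10.9% of all genes. Averaging probe sets gave 1, where 1092 of all genes passed as higher. Repeated quantile normalization gave 3 by adding Got2, beside 8.85%, and the replicate block gave 7, beside 19.6%. Within wild-type leukaemias, the replicate block gave 3 of the 7, beside 11% of all genes, and a fit to both groups alone 1, beside 4.69%. Leaving out a leukaemia gave 0 to 1, the 1 without leukaemia 81 or 85, beside 3.46% and 2.97%. Within knock-in leukaemias the replicate block gave 1, beside 8.7% of all genes. The block changed no other call of a tested gene among the 9.

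All values that changed sign passed nowhere. Ogdh between genotypes in c-kit-positive cells became 0.022 with repeated quantile normalization. Leaving out a leukaemia gave it -0.14 (without 81) to 0.11 (without 85, and 0.087 without 79) there, -0.53 (without 81) to 0.089 (without 85) in c-kit-negative cells, and -0.33 (without 81) to 0.098 (without 85) over both. Mdh2 in c-kit-negative cells ran from -0.17 (without 81) to 0.13 (without 79), with 0.021 without 83 and 0.10 without 85. Sucla2 between fractions in wild type ran from -0.030 (without 73) to 0.10. The interaction of Suclg1 became -0.012 with arrays centred on their medians, and ran from -0.073 (without 75) to 0.098, with -0.046 without 81 and -0.019 without 83. The cause was not tested.

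Of the 91 pathway genes, 14 passed between fractions over both genotypes, beside 8.25% of all genes, against 36 with the replicate block, beside 19.6%. Other scalings, filters, probe sets and moderation gave 12 to 20. The 20 were of the 78 genes left by the stricter filter, and without a filter the lists held 93. Leaving out a leukaemia gave 1 to 24. The 1 came without leukaemia 75 or 83, where 325 and 366 of all 19152 genes passed as higher. The 24 came without leukaemia 81, beside 10.9% of all genes. Within wild-type leukaemias 2 passed, beside 0.768% of all genes, against 25 with the block (11%) and 12 in a fit to both groups alone (4.69%). Other settings gave 0 to 8. The 8 came without leukaemia 81, beside 3.46% of all genes. Without leukaemia 73 it was 0, where 1 of all 19152 genes passed as higher and 0 as lower. Within knock-in leukaemias 1 passed, beside 1.88% of all genes, against 10 with the block (8.7%) and 0 to 2 otherwise. The 2 came without leukaemia 81, where 270 of all genes passed as higher and 87 as lower. Between genotypes in c-kit-positive cells 1 passed, beside 0.141% of all genes, against 0 to 4. The 4 came without leukaemia 81, beside 0.642% of all genes. Without leukaemia 83 it was 0, and 0 of all genes passed in either direction.

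Groups of 3 limit what these arrays can show, and genes measured by 1 probe set have no check within the array.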
